A study of Mus musculus with 2 samples.

Results

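The striated muscle miRNAs, the small regulatory RNAs of skeletal and heart muscle, were measured in 2 dissected regions of untreated ICR mouse embryos at E13.5: the 3rd mammary gland, and flank tissue lying between mammary glands 3 and 4, called the inter mammary gland region. The members were chosen by name: mmu-miR-1, mmu-miR-133a, its passenger strand mmu-miR-133a*, mmu-miR-133b, mmu-miR-206, mmu-miR-208a, mmu-miR-208b and mmu-miR-499, 8 of the 696 mouse miRNAs on the array. Total RNA, 100 ng from each dissected region, was labelled with Cy3 and hybridized to an Agilent miRNA array of 1 colour, 1 for each region, on the same slide and in the same scan. The labels do not say how many embryos were pooled, how deep the dissections went, or the sex of the embryos. A single array stands for each region, without replicates, and no test between the regions was run. The errors given are over the spots of an array and are technical only.

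A miRNA silences messenger RNAs that pair with its seed, the bases near its 5′ end. In striated muscle, a small set of such RNAs is transcribed under myogenic factors such as MyoD, myogenin, Mef2 and Srf. miR-1 and the miR-133 miRNAs are made in both heart and skeletal muscle, miR-206 in skeletal muscle, and miR-208a, miR-208b and miR-499 lie in introns of myosin heavy chain genes and are known from heart and slow fibres. miR-1 and miR-206 promote differentiation of myoblasts, while miR-133 is known to favour their proliferation.

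Mature sequences from the RefSeq annotation of GRCm38.p6 were matched to 5 of the 8 names. They are printed to show which of these share a seed and where they differ. The seed, bases 2 to 8, is in capitals. The arms are those that the older array names denote, 3p for all but miR-499, whose arm is 5p.
mmu-miR-206: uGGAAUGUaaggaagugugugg
mmu-miR-133b: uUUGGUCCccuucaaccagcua
mmu-miR-208a: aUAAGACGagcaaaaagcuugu
mmu-miR-208b: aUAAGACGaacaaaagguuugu
mmu-miR-499: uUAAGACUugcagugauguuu
miR-208a and miR-208b had the same seed and differed at 3 of 22 bases, G10A, A16G and C18U, counted from the 5′ end with the base of miR-208a first. The seed of miR-499 differed from theirs by G8U. miR-1 belongs to the seed family of miR-206, and miR-133a to that of miR-133b. miR-133a and miR-133b are near-identical, so signal on the probes of either may come in part from the other, and they are not independent readings.

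miR-206 and miR-133b come from neighbouring hairpins, which are printed because both miRNAs were among those lowest in the gland. Each hairpin is given on the + strand of GRCm38.p6, with the arm read by the array in capitals.
Mir206, chr1:20679010-20679082: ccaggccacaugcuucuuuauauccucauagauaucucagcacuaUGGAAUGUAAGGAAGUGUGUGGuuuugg
Mir133b, chr1:20682769-20682887: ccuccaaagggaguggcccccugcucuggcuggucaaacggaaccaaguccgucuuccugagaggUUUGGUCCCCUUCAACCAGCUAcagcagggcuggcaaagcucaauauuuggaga
The hairpins lie 3686 bases apart, and the annotation places both within Lincmd1, a long noncoding RNA gene of muscle. Mir208a lies within Myh6, Mir208b within Myh7 and Mir499 within Myh7b, which encode myosin heavy chains.

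Muscle miRNAs gave lower signals in the 3rd mammary gland than in the inter mammary gland region. Of the 8 members, 4 were detected on both arrays, miR-1, miR-133a, miR-133b and miR-206, and all 4 were at least 1.5-fold lower in the gland, against 9.15% of the 284 miRNAs detected on both arrays. All 4 were also at least 2-fold lower, against 5.63%. miR-133a* and miR-499 passed detection only in the inter mammary gland region, and miR-208a and miR-208b in neither region. None of the 4 members detected on both arrays was higher in the gland. In that direction 2.11% of the miRNAs detected on both arrays passed 1.5-fold, so none among 4 is near that share. Detection of a probe required that over 50% of its spots be well above background by the scanner software, and detection of a miRNA required 1 such probe. In bulk tissue, fewer muscle cells and less of these RNAs per cell cannot be told apart.

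The arrays as a whole were similar in brightness. The share of miRNA spots well above background was 38.1% on both, and 0 miRNA spots were saturated. Negative control spots reached at most 17.3 in the 3rd mammary gland, against 19.2 in the inter mammary gland region. Signals are background-subtracted intensities, and scaled signals were brought to the scale of the inter mammary gland array, using the 75th percentile over probes that passed detection on both. The median log2 ratio of the 284 miRNAs was 0.05, that of the 4 members was -1.24, a distance of -1.28. With no scaling the median of all moved by 0.13, and every ratio moved with it by construction.

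miR-206, the miRNA of skeletal muscle that promotes myoblast differentiation, had the lowest ratio among the 4 members that both arrays detected. Its brighter probe gave a signal before scaling of 424 ± 49.2 (SD over 10 spots) in the 3rd mammary gland, against 1066 ± 113 (SD over 10 spots) in the inter mammary gland region. Its dimmer probe gave 306 ± 32.7 and 726 ± 63.1 (SD over 10 spots each). On neither probe did the spots of the regions overlap: the brightest gland spot of the brighter probe was 441 after scaling, and the dimmest spot of the inter mammary gland region was 885. Spots were separated in this direction on 16.8% of the 555 probes detected on both arrays. The scaled signal was 2.69-fold lower in the gland, a log2 ratio of -1.43 ± 0.05 (SE over spots), the 10th lowest of 284. The study's paper cites earlier work that placed miR-206 in mesenchyme at stages before E13.5 but not at E13.5. On the gland array at E13.5, 20 of 20 spots of miR-206 were well above background. The array read bulk tissue, and which cells gave this signal was not tested. Whether miR-1, of the same seed family, gave part of it was not tested either.

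miR-133b, the neighbour of miR-206 in Lincmd1, was 2.40-fold lower in the gland. Its brighter probe read 905 ± 86.9 (SD over 10 spots) in the 3rd mammary gland, against 1964 ± 64.7 (SD over 8 spots, outliers left out) in the inter mammary gland region. Its dimmer probe read 521 ± 31.1 and 1160 ± 77.1 (SD over 10 spots each). The log2 ratio was -1.26 ± 0.03 (SE over spots), and the ratio of the brighter probe, 2.37-fold lower, was close to that of the dimmer one, 2.44-fold lower. The ratios of miR-206 and miR-133b differed by 0.16 ± 0.06 (log2, SE over spots), more than the spots' own error. That error leaves out differences between probes, and the probes of miR-1 differed by 0.35 (log2).

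miR-133a, the sister of miR-133b, was 2.31-fold lower, a log2 ratio of -1.21 ± 0.03 (SE over spots). For the brighter probe the signal before scaling was 302 ± 21.2 in the 3rd mammary gland, against 638 ± 37.4 in the inter mammary gland region (SD over 10 spots each). For the dimmer probe it was 78.9 ± 8.41 and 167 ± 9.26 (SD over 10 spots each). Both probes gave a ratio of 2.31 or 2.32, although their brightness differed. miR-133a and miR-133b differed in log2 ratio by 0.05 ± 0.05, which is within the error over spots.

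miR-1, which heart and skeletal muscle share, was 2.17-fold lower in the gland, with a log2 ratio of -1.12 ± 0.03 (SE over spots). The brighter probe gave 569 ± 50.9 (SD over 10 spots) in the 3rd mammary gland, against 1193 ± 21.5 (SD over 7 spots, outliers left out) in the inter mammary gland region. The dimmer probe gave 186 ± 9.13 and 305 ± 8.57 (SD over 10 spots each). The probes of miR-1 disagreed in size but not in direction: the brighter was 2.29-fold lower and the dimmer 1.79-fold lower, a log2 difference of 0.35 ± 0.05 (SE over spots). The ratio of miR-1 lay 0.09 ± 0.05 above that of miR-133a, under 2 standard errors, and 0.31 ± 0.06 above that of miR-206.

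**Figure D1:**
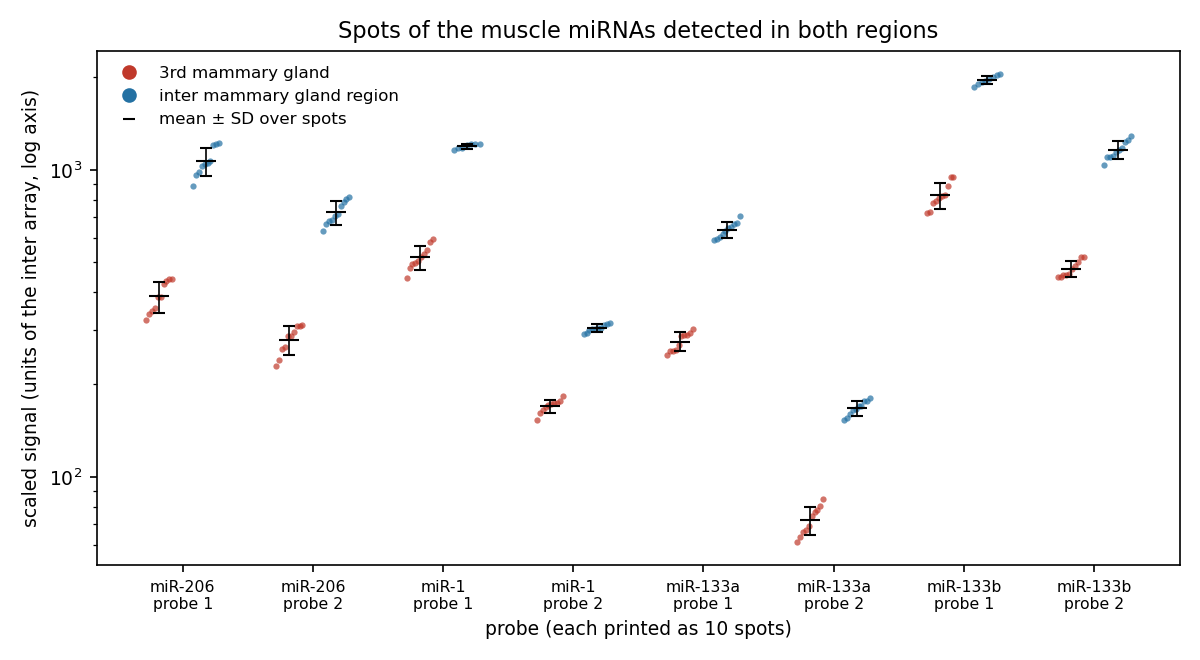
Scaled signal of every spot of the 4 muscle miRNAs detected in both regions, by probe, on a log axis; bars show the mean and SD over spots, with outlier spots left out. On all 8 probes the spots of the inter mammary gland region lie above those of the 3rd mammary gland. The same held for 16.8% of the 555 probes detected on both arrays.

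Across the 4 miRNAs, 8 of 8 probes were at least 1.5-fold lower in the gland, against 10.1% of the 555 probes detected on both arrays. On all 8 the dimmest spot of the inter mammary gland region was brighter than the brightest spot of the gland after scaling, against 16.8% of the 555 probes. Each spot has a partner at the same position on the other array. Of the 75 positions measured on both, the inter mammary gland region was brighter at 75, after scaling and before it, against 43.4% of the 4774 positions of all probes detected on both arrays. With the array divided at its middle row and middle column, the median log2 ratio of a member within such an area ran from -1.57 to -0.85 over the 15 member and area pairs that held spots, the smallest with 2 positions. Spots of a probe share their RNA and are not replicates of the region.

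**Figure D2:**
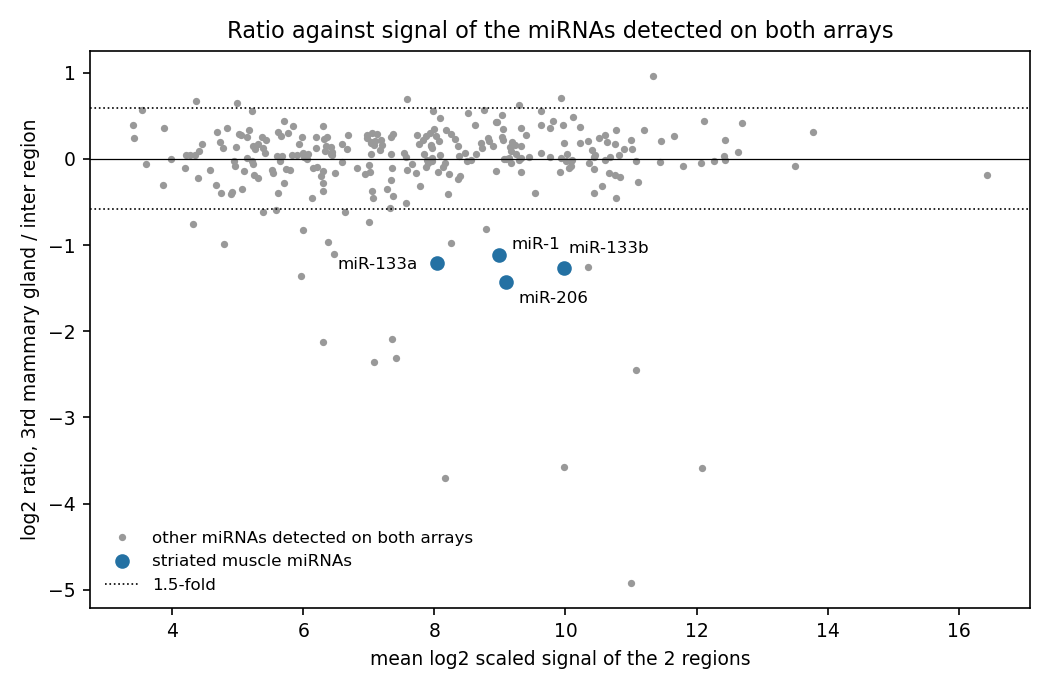
Log2 ratio of the 3rd mammary gland over the inter mammary gland region against the mean log2 scaled signal, for the 284 miRNAs detected on both arrays; dotted lines mark 1.5-fold. The 4 muscle miRNAs lie between -1.43 and -1.12, below the cloud around 0. Another 11 miRNAs lie below miR-1, the highest of the 4, and 9 miRNAs lie below miR-206, the lowest.

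The total signal that the scanner software sums over the probes of a miRNA gave the 4 members detected on both arrays in the same order, with miR-133a* below them. Without scaling, the total of miR-206 was 483 in the 3rd mammary gland (software error 35.2), against 1161 in the inter mammary gland region (84.1), 2.40-fold lower. That of miR-133b was 944 (69.6) and 2023 (148), 2.14-fold lower. The totals of miR-133a, 252 (21.4) and 521 (43.1), were 2.07-fold apart, and those of miR-1, 500.0 (40.1) and 970.3 (79.9), were 1.94-fold apart. For miR-133a* the totals were 12.4 (4.02) and 61.5 (6.93), 4.94-fold apart, and for miR-499 they were 34.0 (5.93) and 46.5 (6.09), 1.37-fold apart. These totals come from the same spots and are no second measurement.

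miR-133a*, the passenger strand of the miR-133a hairpin, passed detection only in the inter mammary gland region. Its brighter probe gave 65.6 ± 5.36 there and 18.8 ± 2.90 in the 3rd mammary gland (SD over 10 spots each, before scaling). Its dimmer probe gave 29.4 ± 4.69 and 11.5 ± 6.55 (SD over 10 spots each). In the inter mammary gland region 15 of 20 spots were well above background and in the gland 0 of 20, with 9 of the 20 above the highest negative control spot. Against the lowest single probe detected on the gland array (30.7 before scaling), miR-133a* was at least 1.70-fold lower in the gland. The software called the miRNA detected on both arrays, and the quotient of its scaled signals was then 3.43-fold lower. After the normexp background correction with an offset of 50 it fell by only 0.30 on the log2 scale and no longer passed 1.5-fold.

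miR-499, encoded within Myh7b, was dim in both regions. The brighter probe gave 37.2 ± 3.84 (SD over 10 spots) in the inter mammary gland region and 27.6 ± 6.18 (SD over 10 spots) in the 3rd mammary gland. The dimmer gave 34.5 ± 4.63 (SD over 9 spots) and 23.7 ± 4.37 (SD over 10 spots). All 19 spots of the inter mammary gland region were well above background, but only 4 of 20 in the gland, although 19 of those 20 lay above the highest negative control spot of that array. The spots of the regions overlapped on the brighter probe. miR-499 passed detection through the inter mammary gland region alone, which fixed its direction, so a count of brighter spots would add nothing. Its bound, at least 1.28-fold lower in the gland, did not reach 1.5-fold. By the software's own call miR-499 was detected on both arrays, with a quotient of scaled signals 1.53-fold lower.

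miR-208a and miR-208b, the heart miRNAs that share a seed, were not detectable at these signals. The mean signal of miR-208a before scaling was 0.75 in the 3rd mammary gland, against 0.27 in the inter mammary gland region, and that of miR-208b was 10.2 in both. The highest spot was 7.73 for miR-208a and 16.4 for miR-208b, both in the gland and under the highest negative control spot of that array. By the total call of the software both were also undetected in both regions. No fold is given for these miRNAs.

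**Figure D3:**
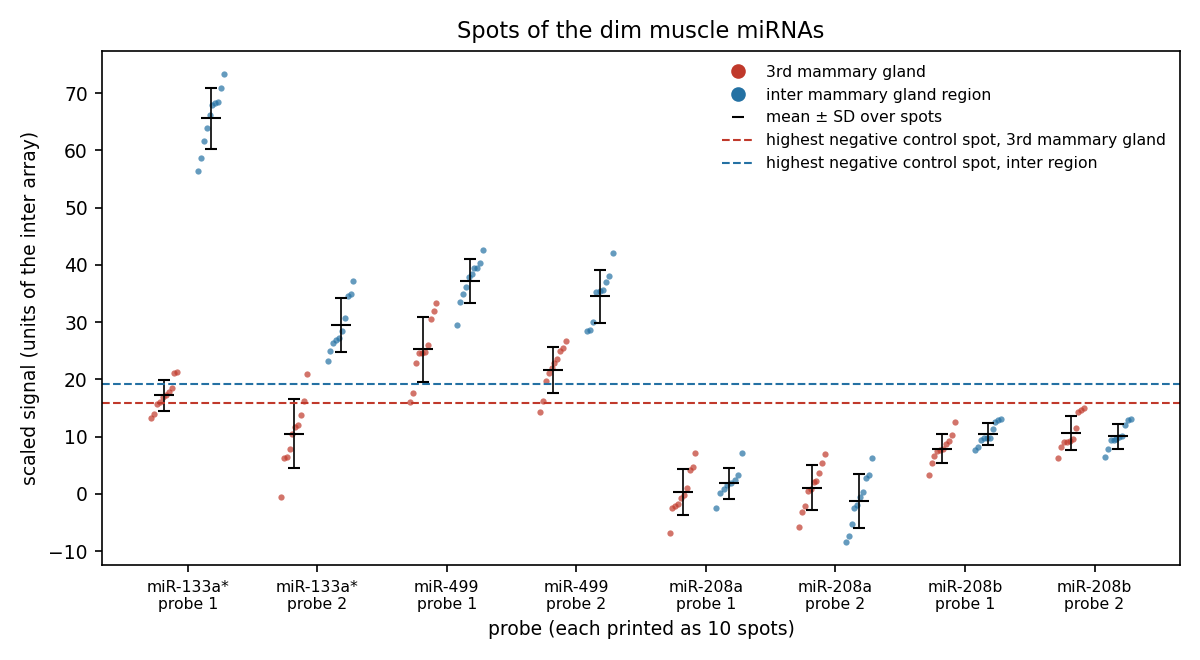
Scaled signal of every spot of the muscle miRNAs detected in 1 region or in neither, by probe, on a linear axis; bars show the mean and SD over spots, and dashed lines the highest negative control spot of each array. miR-133a* and miR-499 rise above the line of the inter mammary gland array there, and in the gland 19 of 20 spots of miR-499 and 9 of 20 of miR-133a* lie above that array's line, while miR-208a and miR-208b stay under the lines in both regions.

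Counting ratios and bounds together, 5 of the 6 members detected on at least 1 array were at least 1.5-fold lower in the gland, against 9.94% of the 312 miRNAs detected on at least 1 array. miR-133a* and miR-499 entered this count through the inter mammary gland region alone, so their direction was fixed by that. Of the 280 other miRNAs detected on both arrays, 11 had a lower ratio than miR-1, the highest of the 4 members. The 5 with a log2 ratio nearest to the members' median, over the 2 arrays, were miR-2145 (-1.25), miR-1982* (-1.36), miR-134 (-1.10), miR-139-3p (-0.99) and miR-2133 (-0.97). No gene named for miR-2145 or miR-2133 is in the RefSeq annotation used for names. miR-139-3p was dim, with signals before scaling of 21.4 in the gland, against 38.8 in the inter mammary gland region. This likeness over 2 arrays rests on 1 ratio.

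Other miRNAs known from muscle development are made in many cell types. Of 18 such miRNAs, 13 were detected on both arrays, with a median log2 ratio of -0.02 and a range from -0.40 to 0.70. Another 2 were detected on 1 array. None of these was 1.5-fold lower in the gland, against 9.94% of the 312 miRNAs detected on at least 1 array, and in a list this short that count is no contrast with the muscle miRNAs. At least 1.5-fold higher were 2, against 3.21% of the 312: miR-181a (1.62-fold), and miR-31 (at least 4.2-fold), which passed detection in the gland alone but was called on both arrays by the software. The brightest 2 of the list in the inter mammary gland region, miR-214 and miR-26a, were 1.20-fold and 1.16-fold higher in the gland. miR-486 and miR-378, which muscle is rich in, had log2 ratios of -0.39 and -0.40, under 1.5-fold. The 4 members of the striated muscle list lay below the range of the 13. At least 9.15% of the 284 miRNAs detected on both arrays, these 4 included, lay below it, so no contrast is read from this.

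Among miRNAs detected on both arrays, markers of other cell types moved less than the muscle miRNAs. The 7 epithelial miRNAs were detected in both regions, with a median log2 ratio of 0.34 and a range from -0.31 to 0.51, and none passed 1.5-fold. Within that list the 5 miRNAs of the miR-200 family were 1.15-fold to 1.43-fold higher in the gland, while miR-203 was lower (log2 ratio -0.31) and miR-205 was at -0.02. The medians were 0.26 for 3 mesenchymal miRNAs (miR-199a-3p, miR-199a-5p and miR-214), 0.21 for 3 of vessels and smooth muscle, 0.17 for 2 of cartilage, and 0.05 for 4 of blood, all with no member past 1.5-fold. For the nervous system it was -0.40 over 2 of 5 miRNAs, miR-128 and miR-138, while miR-9, miR-124 and miR-137 had no probe that passed detection in either region. The software's own call had miR-9 and miR-137 detected in the gland and not in the inter mammary gland region, and miR-124 in neither. Scaled signals in the gland and the inter mammary gland region were 20.6 and 9.73 for miR-137, and 14.3 and 6.92 for miR-9. These dim miRNAs were higher in the gland and are not covered by the medians. miR-214 is in both the mesenchymal and the myogenesis list. The signals of the 4 muscle miRNAs summed to 1504 in the gland, against 3610 in the inter mammary gland region, those of the epithelial list to 10010 and 9530, and those of the mesenchymal list to 25243 and 20691, all scaled. The part of tissue makeup in the muscle ratios was not tested.

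**Figure D4:**
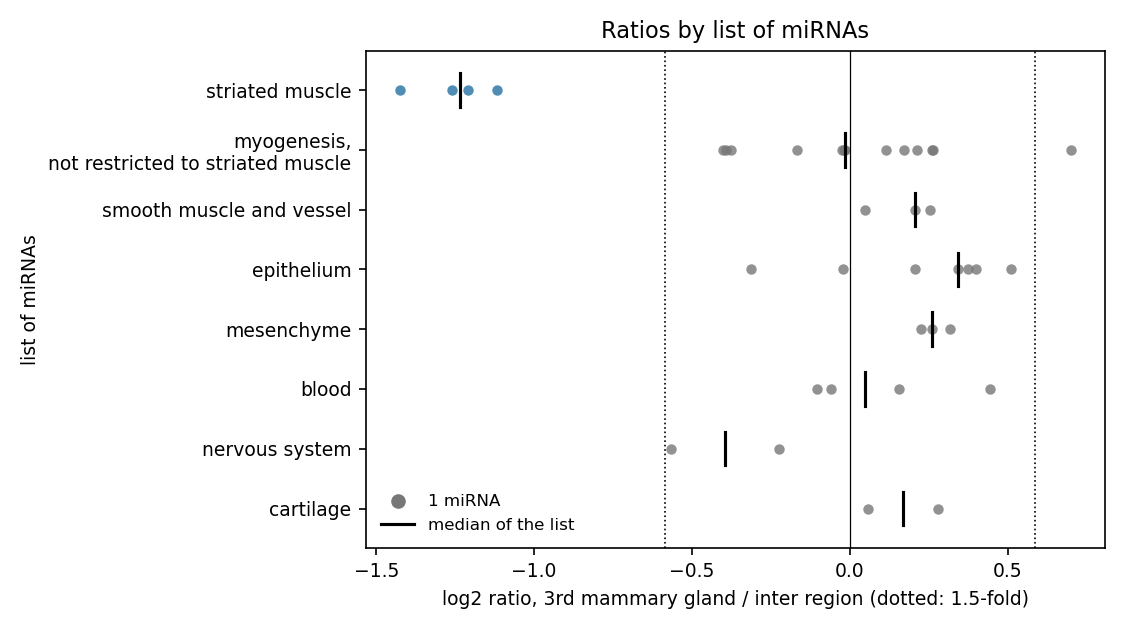
Log2 ratio of the 3rd mammary gland over the inter mammary gland region for each miRNA detected on both arrays, by list; vertical bars are medians and dotted lines mark 1.5-fold. The 4 striated muscle miRNAs, median -1.24, lie to the left of the other lists. They are among the 9.15% of the 284 miRNAs detected on both arrays that are at least 1.5-fold lower in the gland.

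**Figure D5:**
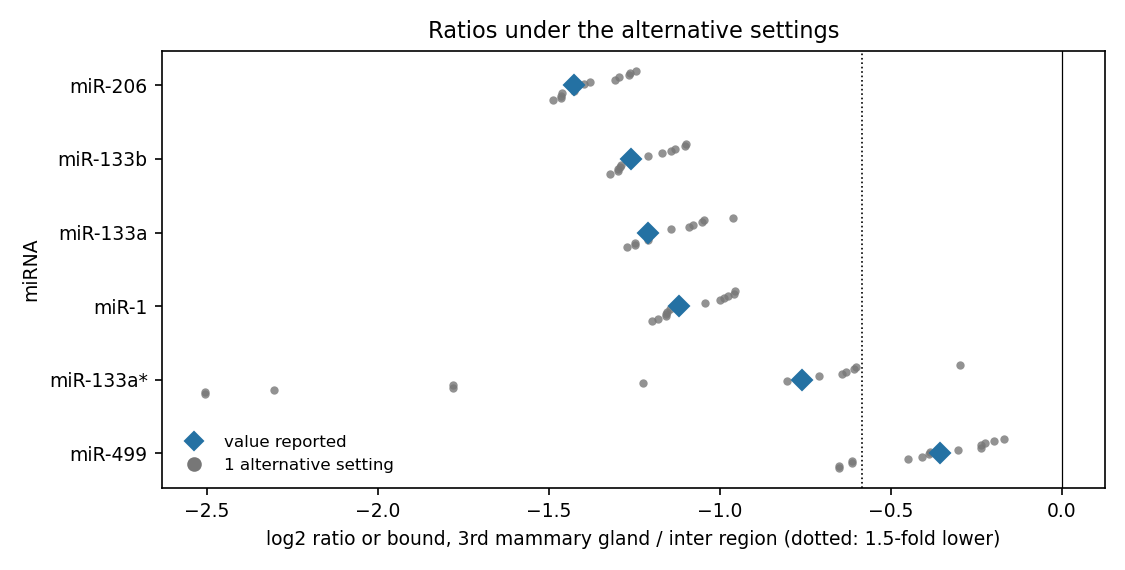
Log2 ratio, or bound for miR-133a* and miR-499, under the reported setting (diamond) and under each alternative that gives a value (points); the dotted line marks 1.5-fold lower. miR-206, miR-133b, miR-133a and miR-1 stay to the left of the line in 14 of 14 alternatives each, and miR-499 in 4 of 14. The deposited table equals the totals of the scanner files, so some alternatives repeat each other.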

How the data were processed

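Spots were quantified by the authors in Feature Extraction (10.7.3.1 in the file header), with a fitted background subtracted. The deposited spot intensity is on a linear scale, goes below 0 for some spots and carries no normalization between the arrays. The deposited detection and outlier calls are flags of the software. The deposited table of total intensity per miRNA equals the totals of the scanner files for 696 of 696 miRNAs on each array, with 0.1 where the software called none. Normalization was done in GeneSpring GX by the study's methods, with no scaling stated.

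Control spots and outlier spots were dropped, the latter 1.67% of miRNA spots for the 3rd mammary gland, against 2.51% for the inter mammary gland region. Spots of a probe were averaged, arrays scaled on the 75th percentile over probes that passed detection on both, and probes of a miRNA averaged. A miRNA detected on 1 array was compared with the higher of its own signal and the lowest single detected probe on the other array, which gives a lower bound of the fold. The threshold was 1.5-fold. Errors of ratios were propagated from the SD over spots. Ranks were taken over the 284 miRNAs detected on both arrays, and background shares over these, the 312 detected on at least 1, or the probes or spot positions named. The steps were run on simulated spots, drawn for both regions from the inter mammary gland array with a fixed detection cut and assumed noise. These settings differ from the arrays near background, so the run does not check the dim members.

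Every member was named, with the 5 other miRNAs nearest to the members' median ratio and, from the list of other miRNAs of myogenesis, those past 1.5-fold and the brightest 2; miR-486, miR-378 and the named members of the cell type lists were added after their values were seen. The members and lists were chosen with earlier results of these data known. The list of mesenchymal miRNAs held 4 names, of which 3 are on the array under that name. RefSeq sequences of GRCm38.p6 were matched by name, while the array's own grid names another build.

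Alternatives covered scaling, signal, background, detection, outliers, spot and probe summaries, dim miRNAs, floor and threshold. The normexp alternative used the median signals of spot and local background in place of the mean spot signal. The software was limma 3.58.1 under R 4.3.3, and matplotlib 3.10.9, numpy 2.4.6 and pandas 2.3.3 under Python 3.11.15. Precision is limited by the number of arrays.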

Additional observations from a re-analysis of the deposited data

How the results depend on the processing

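No paired analysis was possible because the regions have 1 array each. Over 16 alternatives, 158 values were recomputed: 128 moved by less than the SD over spot positions (counts: by at most 1.5 times) and 30 moved further. No ratio changed sign. Counts have no sign, and detection fixes that of a bound. The members at least 1.5-fold lower in the gland, 5 in the reported setting, were 4 under 3 alternatives (normexp, dim miRNAs left out, 2-fold threshold), 5 under 9 and 6 under 4. The share lower among all miRNAs detected on both arrays, 9.15%, was 6.34%, 10.1% and 5.63% under those 3. It was 7.75% to 9.42% under the 9 and 9.15% to 11.8% under the 4. The 2-fold threshold leaves every ratio as it was, the floor bears on miR-133a* and miR-499 alone, and these gave no value with dim miRNAs left out. miR-499 reached 1.5-fold under 4 of 14 alternatives, which are not all distinct. Its log2 ratio was -0.65 with the scaled totals and the scaled deposited table (same values). With the software's call and with the lowest detected miRNA as floor it was -0.61. Those detected in the gland, 4, were 6 with the totals, the deposited table and the software's call, and those detected in the inter mammary gland region, 6, were 4 with dim miRNAs left out.

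With no scaling, the members' median log2 ratio (-1.24) was -1.11, with miR-1 at -0.99, miR-133a at -1.08 and miR-133b at -1.13. Scaled to the 75th percentile over all probes, that median was -1.08, with miR-1 at -0.96, miR-133a at -1.05 and miR-133b at -1.10. With the median of the probes it was -1.12, with miR-1 at -1.0 and miR-133b at -1.14. With the deposited table unscaled it was -1.07, with miR-1 at -0.96, miR-133a at -1.05, miR-133b at -1.10 and miR-133a* at -2.31. With normexp, whose offset draws ratios toward 1 by construction, it was -1.07, with miR-1 at -0.98, miR-133a at -0.96, miR-133b at -1.17 and miR-206 at -1.25. miR-133a* (bound -0.76) was at -2.51 with the scaled totals and with the scaled deposited table, and at -1.78 with the software's call and with the lowest detected miRNA as floor, which replace the bound by its own signal.

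The number of all miRNAs at least 1.5-fold apart, 41, was 74 with the scaled totals and the scaled deposited table, 79 with that table unscaled, 22 with normexp and 21 at 2-fold. Causes were not tested where none is named. Signal over background limits miR-133a*, miR-499, miR-208a and miR-208b.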
